A study of Mus musculus with 6 samples.

Results

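Cytosolic tRNA fragments of 11 amino acids (Ala, Asn, Asp, Cys, Gln, Ile, Phe, Pro, Thr, Trp and Tyr) were followed through small RNA libraries of mouse urinary bladder cells. They are the cytosolic tRNAs outside the Gly, Glu and Val, the Leu, Ser and SeC, and the Met, Lys, Arg and His groups. They were chosen by name, with earlier results of these data known. They fill 157 of the 381 rows of the tRNA table, each row being a numbered tRNA gene, and summing the gene copies leaves 19 anticodons among 71 features. The features are 49 cytosolic anticodons and 22 mitochondrial tRNAs. The CYP group, 3 libraries, came from mice given cyclophosphamide, an alkylating drug whose urinary metabolites inflame the bladder, injected intraperitoneally 4 times (days 2, 4, 6 and 8) at 80 mg/kg each, and the labels place these cells 8 days after induction. The Control group, also 3 libraries, came from mice injected with saline, which the labels also call naive. Both groups were 8 weeks old, no strain, sex or genotype is stated in the labels, and the cells were isolated from bladder tissue and may hold several cell types. Whether replicate libraries are separate animals is not stated, and p-values then reflect only library-to-library spread, which could be technical. In such bulk samples, fewer cells of a type and less RNA per cell cannot be told apart.

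A transfer RNA carries an amino acid to the ribosome and reads the mRNA codon with its anticodon. It is transcribed by RNA polymerase III as a precursor that ends in a run of T, the leader and the trailer are cut off, and the letters CCA are added to the 3′ end. Pieces of the mature molecule (long fragments cut in the anticodon loop by angiogenin or other nucleases, and shorter 5′ and 3′ fragments) and the cut-off trailers all enter small RNA libraries. Cells under oxidative or other stress are known to accumulate anticodon-loop fragments. The tRNA table counts unique molecular identifiers (UMIs, tags that mark single cDNA molecules) per tRNA without saying which piece of it was read, so 5′ and 3′ pieces cannot be told apart there. A separate table of uncharacterized sequences gives the letters and mm10 position of each sequence, and 84 of its 1056 sequences lie at the 3′ end of 24 genes for these tRNAs, as RefSeq places them on GRCm38.p6.

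The sequences below show what those 3′ molecules are. They are the most abundant sequence at each of 9 genes, written 5′ to 3′ in DNA letters, and capitals mark the T or run of T at the 3′ end or, in the Tyr sequence, the final CCA. The first 5, from the genes with the most trailer UMIs, are trailers that open at the first base past the tRNA gene, or the second in the case of Ala-CGC.
Thr-CGT, gene n-TTcgt5, chr16:13437395-13437425, plus strand: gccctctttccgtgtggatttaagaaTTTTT
Ala-CGC, gene n-TAcgc8, chr2:57182151-57182169, plus strand: gcagccggaattctgTTTT
Thr-CGT, gene n-TTcgt3, chr11:79704722-79704741, plus strand: gcgtttggaagagataTTTT
Ala-AGC, gene n-TAagc16, chr13:21222658-21222695, plus strand: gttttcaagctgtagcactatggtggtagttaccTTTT
Cys-GCA, gene n-TCgca55, chr11:97988229-97988245, minus strand: agcaggctcactcTTTT
The next 2 are the trailers with the largest fold between the groups among those at 10 or more UMIs in every library.
Asp-GTC, gene n-TDgtc3, chr1:171065342-171065357, minus strand: gcgtagcgtccTTTTT
Cys-GCA, gene n-TCgca57, chr6:47979070-47979097, plus strand: acaggcccatagtcgaggggcactcTTT
The last 2 begin inside the tRNA itself: the Ala-TGC sequence starts at base 58 of the 72-base gene and runs 4 bases past its end, which are CCA and a T, and the Tyr-GTA sequence ends in CCA. CCA is the 3′ end of a mature tRNA, and the T after it in the Ala-TGC sequence lies beyond that end. Whether the genome also holds these letters here was not checked.
Ala-TGC, gene n-TAtgc10, chr5:125404246-125404264, minus strand: tccccggcatctccaccaT
Tyr-GTA, gene n-TYgta9, chr5:30888153-30888174, plus strand: tcgattccggctcgaaggaCCA

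The 11 amino acids together took a larger part of the tRNA UMIs in CYP. Their share was 10.2, 9.14 and 11.7% in the CYP libraries, against 4.04, 5.12 and 7.75% in the Control libraries. Every CYP library lay above every Control library, with means of 10.4 ± 1.31% in CYP and 5.64 ± 1.91% in Control (SD, n = 3 each; exact two-sided permutation p = 0.1, the smallest that 3 against 3 libraries allow). The UMIs themselves were 78691, 77987 and 69983 in CYP and 89330, 50907 and 67712 in Control, so the counts of these tRNAs overlapped between the groups. Set against the miRNAs of the same library, they came to 6870.0, 7517 and 7443 miRNA-scaled CPM (tRNA UMIs per 1000000 miRNA UMIs) in CYP and 8099, 5588 and 5559 in Control (exact permutation p = 0.4). Control library 1 was the highest of all 6 on that scale and the lowest by share of tRNA.

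The shares of other tRNAs differed as well. Gly, Glu and Val tRNAs, the bulk of the table, took 75.3, 77.2 and 70.0% of the tRNA UMIs in CYP and 90.8, 84.7 and 79.6% in Control (exact permutation p = 0.1). Met, Lys, Arg and His tRNAs took 9.41, 8.77 and 11.5% in CYP and 3.51, 6.20 and 7.34% in Control, and Leu, Ser and SeC tRNAs 2.59, 2.52 and 3.39% in CYP and 0.498, 1.28 and 2.34% in Control. Both were higher in every CYP library than in every Control library (exact permutation p = 0.1 each), as the 11 amino acids were. Control library 1 stood apart with 2212083 tRNA UMIs, against 596152 to 994786 in the other 5 libraries. The most abundant features over all libraries together, Gly-GCC and Val-CAC, averaged 24197 ± 6139 and 11995 ± 1731 miRNA-scaled CPM in CYP, against 47035 ± 26904 and 31951 ± 21703 in Control. Glu-CTC averaged 12323 ± 3149 in CYP, just above Val-CAC there, and 23273 ± 12180 in Control. The part of these features in the share of the 11 amino acids was not tested. Without Control library 1, the share differed by 3.93 percentage points, against 4.73 points with it. The miRNA-scaled level was higher by 1703 in CYP without that library and by 861 with it.

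**Figure D1:**
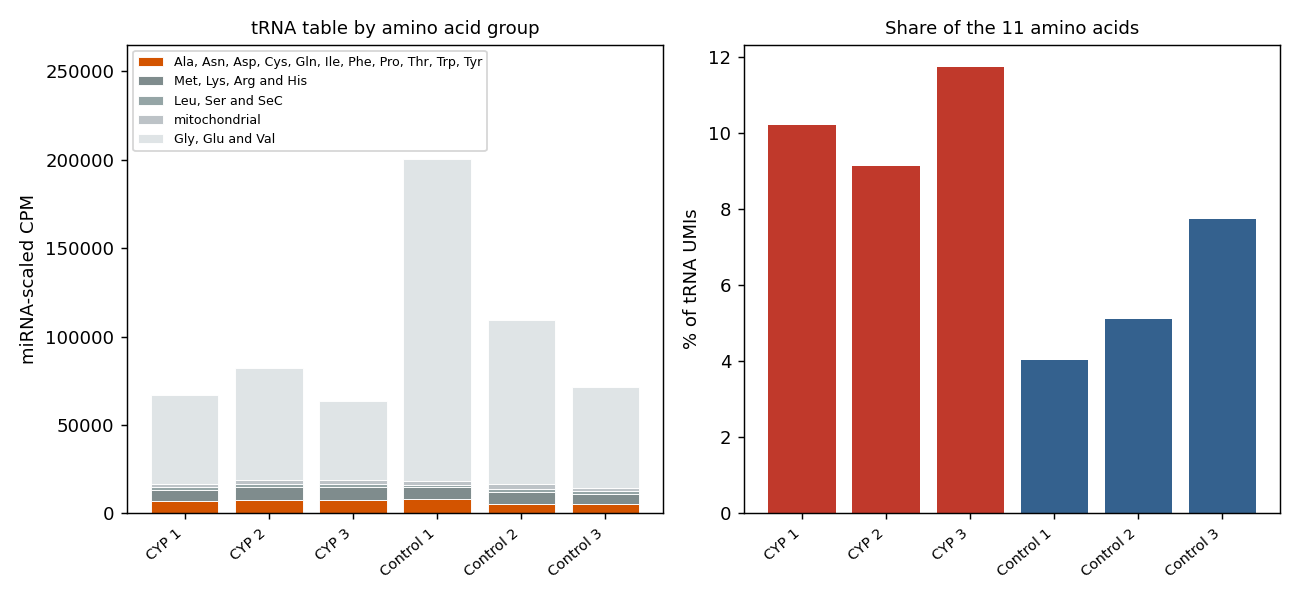
Stacked bars on the left show the tRNA table of each library in miRNA-scaled CPM, by amino acid group, and bars on the right show the percent of tRNA UMIs taken by the 11 amino acids. The CYP libraries hold 9.14% to 11.7% on the right and the Control libraries 4.04% to 7.75%, while Control library 1 has by far the tallest stack on the left.

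Most of these tRNAs were somewhat higher in CYP once the libraries were scaled, but the differences were small and only Asn-GTT passed the test. Libraries were scaled by the trimmed mean of M values (TMM), which sets a library by the bulk of its features, and levels are given as TMM-scaled CPM, UMIs per 1000000 of the scaled tRNA total. In edgeR's quasi-likelihood test over 70 features, with Benjamini-Hochberg adjustment, 1 of the 19 anticodons was called higher in CYP at an adjusted p below 0.05 and 0 were called lower, where 1.43% of all features were called higher and 12.9% lower. At an unadjusted p below 0.05 the counts were 10 higher and 0 lower, against 20% of all features higher and 17.1% lower. DESeq2 called 9 higher and 0 lower, against 19.7% of all features in each direction. The log2 fold change was above 0 for 17 anticodons and below 0 for Asp-GTC and Trp-CCA, with a median of 0.35 over the 19 and -0.064 over all 70 features. The CYP libraries were higher without overlap for 13 of the 19 in TMM-scaled CPM, against 28.6% of all features, and none showed the reverse order. On the miRNA scale the count was 11 of 19, against 25.7% of all features.

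The size of these fold changes rested on the scaling. With the plain totals of the tRNA table the median of all features shifted up by 0.82 on the log2 scale, all 19 anticodons were above 0, and the log2 fold changes of Asp-GTC and Trp-CCA turned to 0.44 and 0.69. With miRNA totals the median of all features shifted up by 0.26, and 6 anticodons were called higher (Ala-CGC, Asn-GTT, Pro-AGG, Pro-TGG, Thr-TGT and Tyr-GTA) and 0 lower, against 11.4% of all features higher and 5.71% lower. Relative to the median of all features, the median of the 19 was 0.42 higher with TMM, 0.39 with plain totals and 0.41 with miRNA totals. When the mitochondrial tRNAs were left out of the fit, that distance was 0.089, no anticodon was called higher (1 at an unadjusted p below 0.05), and Cys-GCA turned to -0.040.

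**Figure D2:**
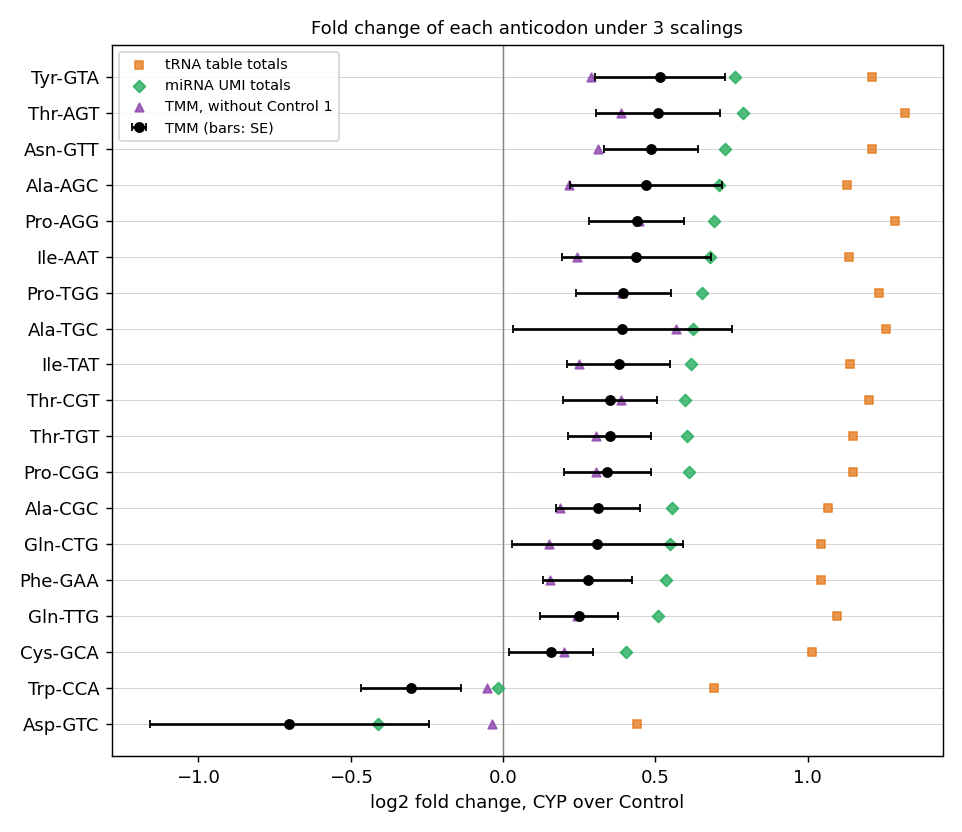
Each line is an anticodon, ordered by its log2 fold change of CYP over Control, with black points and SE bars for edgeR with TMM and other symbols for plain tRNA totals, miRNA totals, and TMM without Control library 1. With TMM, 17 points lie right of 0 and Trp-CCA and Asp-GTC left of it, and plain totals move all 19 to the right of 0.

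Asn-GTT, which inserts asparagine and whose anticodon loop carries the modified base queuosine, rose in CYP. It had 1394, 1293 and 1404 TMM-scaled CPM in the CYP libraries, against 726, 1001 and 1189.9 in the Control libraries. The CYP libraries lay close together and above all the Control libraries, of which library 1 was the lowest. Means were 1364 ± 61.4 in CYP and 972 ± 233 in Control (SD, n = 3 each), a log2 fold change of 0.49 ± 0.15 (SE; edgeR adjusted p = 0.0326). Without Control library 1 it was 0.31 (adjusted p = 0.0377). Across 17 other settings the fold change kept its sign and was called in 8, with adjusted p-values from 0.00224 to 0.253. Leaving out any CYP library, or Control library 2, ended the call, with adjusted p-values between 0.103 and 0.149 in edgeR. The UMIs were spread over 12 rows, and the one with the most, tRNA-Asn-GTT-3-2, held 39.0% of them.

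The 3 alanine anticodons differed widely in level. Ala-TGC was far above the others, with 26404, 16478 and 16246 TMM-scaled CPM in CYP and 18657, 11819 and 14598 in Control. The ranges of the groups overlapped, and the log2 fold change was 0.39 ± 0.36 (edgeR adjusted p = 0.389). Nearly all of it came from one row, tRNA-Ala-TGC-2-1, with 98.8% of the anticodon's UMIs, although RefSeq lists 11 genes. On the miRNA scale the Ala-TGC groups did not overlap, with 2096, 1774 and 1830.3 miRNA-scaled CPM in CYP and 1387, 1044 and 1271 in Control. Ala-AGC, whose first anticodon base is deaminated to inosine, had 2793, 3241 and 2710.1 TMM-scaled CPM in CYP and 1287, 2269 and 2754 in Control. Its highest Control library just exceeded its lowest CYP library, and its log2 fold change was 0.47 ± 0.25 (edgeR adjusted p = 0.157). Ala-CGC had 1393, 1372 and 1239 TMM-scaled CPM in CYP and 892, 1159 and 1176 in Control, with no overlap and a log2 fold change of 0.31 ± 0.14 (edgeR adjusted p = 0.0956).

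Asp-GTC was the most abundant of the 19 and the one in which a single library mattered most. This tRNA is a classical target of the methyltransferase DNMT2, whose mark protects it from cleavage in mouse cells and flies. It had 29977, 23893 and 21299 TMM-scaled CPM in CYP, against 71216, 27410.4 and 23545 in Control. Control library 1 was alone at the top and the other 5 libraries shared one range, so the log2 fold change of -0.70 ± 0.46 (edgeR adjusted p = 0.227) became -0.037 without that library (adjusted p = 0.93; 0.0906 to 0.93 over the settings run). Within the anticodon, row tRNA-Asp-GTC-2-1 held 29.9% of the UMIs. Row tRNA-Asp-GTC-4-1 had 5312, 4589 and 2846 UMIs in CYP and 18853, 4990 and 5437 in Control. Row tRNA-Asp-GTC-1-2, named as one of 13 copies of sequence 1, had 1456, 1357 and 1400 UMIs in CYP and 10894, 1475 and 1712 in Control. The excess of Control library 1 therefore fell on a few rows and not evenly on the copies. How the authors' counting divided reads between copies of 1 sequence is not stated, which makes values of single copies uncertain.

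**Figure D3:**
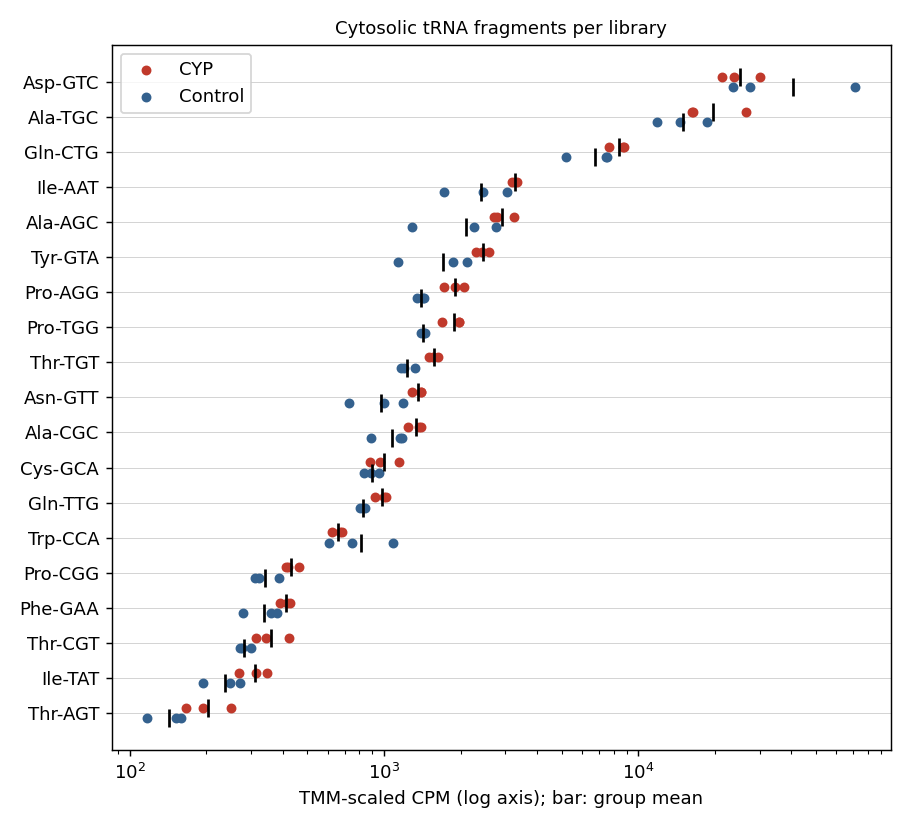
Points are single libraries of each anticodon in TMM-scaled CPM on a log axis, with CYP drawn above Control on each line and a black bar at the group mean. Asp-GTC and Ala-TGC hold the highest levels, CYP and Control separate without overlap for 13 of 19 anticodons, and Control library 1 is the far right point of Asp-GTC.

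Gln-CTG was next in level. Gln-CTG had 8750.1, 8672 and 7666 TMM-scaled CPM in CYP and 5212, 7456 and 7564 in Control. All CYP libraries were above all Control libraries, by a narrow margin over Control libraries 2 and 3, and the log2 fold change was 0.31 ± 0.28 (edgeR adjusted p = 0.387). Row tRNA-Gln-CTG-7-1 held 72.5% of its UMIs. Gln-TTG, the other glutamine anticodon, had 999, 919 and 1019 TMM-scaled CPM in CYP and 824, 842 and 806 in Control, again without overlap (log2 fold change 0.25 ± 0.13; edgeR adjusted p = 0.157).

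Ile-AAT and Tyr-GTA had the same shape, with Control library 1 low and CYP libraries close together. Ile-AAT, with inosine at its first anticodon base, had 3278, 3336 and 3177 TMM-scaled CPM in CYP and 1716, 2458 and 3051 in Control. The groups did not overlap, and the log2 fold change was 0.44 ± 0.24 (edgeR adjusted p = 0.163), or 0.24 without Control library 1. On the miRNA scale the Ile-AAT groups overlapped, with 260 miRNA-scaled CPM in CYP library 1 and 266 in Control library 3. Tyr-GTA, whose genes carry an intron that must be spliced out, had 2308, 2591 and 2426 TMM-scaled CPM in CYP and 1137, 1867 and 2121 in Control. It had the largest log2 fold change of the 19 in this fit, 0.51 ± 0.21 (edgeR adjusted p = 0.0768), which was 0.29 without Control library 1. In mice that lack the kinase activity of CLP1, fragments of Tyr precursor tRNA are known to accumulate.

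Pro-AGG, Pro-TGG and Thr-TGT varied little among the Control libraries. Pro-AGG had 2059.7, 1728 and 1909.6 TMM-scaled CPM in CYP and 1433, 1418 and 1352 in Control. Pro-TGG, at a similar level, had 1974, 1686 and 1980.4 TMM-scaled CPM in CYP and 1435, 1398 and 1454 in Control. In both, every CYP library was above every Control library, with log2 fold changes of 0.44 ± 0.16 for Pro-AGG (edgeR adjusted p = 0.0631) and 0.40 ± 0.16 for Pro-TGG (edgeR adjusted p = 0.0735). Thr-TGT had 1634, 1506 and 1557 TMM-scaled CPM in CYP and 1161, 1203 and 1320 in Control, without overlap, and a log2 fold change of 0.35 ± 0.14 (edgeR adjusted p = 0.0735). These 3 kept nearly the same fold change without Control library 1, at 0.45, 0.39 and 0.31, and all 3 were then called by edgeR (adjusted p = 0.00222, 0.00891 and 0.042). In that fit 7 of all 71 features were called higher and 11 lower. Over all settings run, the adjusted p spanned 0.00222 to 0.296 for Pro-AGG, 0.00891 to 0.374 for Pro-TGG and 0.0163 to 0.45 for Thr-TGT.

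Cys-GCA, the tRNA with the most gene copies among the 19 (56 in RefSeq), differed least between the groups among those above 0. It had 1150.3, 881 and 960.0 TMM-scaled CPM in CYP and 957, 888 and 836 in Control, overlapping, with a log2 fold change of 0.16 ± 0.14 (edgeR adjusted p = 0.374). Alanine and cysteine tRNAs begin with a run of G, and their long 5′ fragments are known, from work on human cells, to inhibit translation. None of the 4 Ala and Cys anticodons was called in either direction by edgeR or by DESeq2. At an unadjusted p below 0.05, 1 of them was higher, against 20% of all features. The median log2 fold change of the 4 was 0.35 (0.21 without Control library 1).

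The other 6 anticodons stayed under 1000 CPM of the plain tRNA total in both groups. Trp-CCA had 672, 623 and 682 TMM-scaled CPM in CYP and 1081, 751 and 608 in Control, and with Asp-GTC it was one of 2 below 0 (log2 fold change -0.30 ± 0.16; edgeR adjusted p = 0.162). Without Control library 3 it was called lower (a log2 difference of -0.44, with an edgeR adjusted p of 0.0473, and 0.0473 to 0.95 over the settings run). Pro-CGG, Phe-GAA, Thr-CGT, Ile-TAT and Thr-AGT averaged between 203 and 431 TMM-scaled CPM in CYP and between 143 and 339 in Control. Their log2 fold changes ran from 0.28 for Phe-GAA to 0.51 for Thr-AGT, with edgeR adjusted p-values from 0.0735 to 0.157. Thr-AGT was the scarcest of the 19, with 152, 216 and 264 UMIs in CYP and 96, 122 and 169 in Control.

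The share of each anticodon within its amino acid overlapped between the groups. Of 13 anticodons in the 5 amino acids with more than 1, this held for all 13, and the smallest adjusted p was 0.975 (exact two-sided permutation test, adjusted over the 13). Ala-TGC made up 81.6 ± 4.22% in CYP and 82.0 ± 6.61% in Control of alanine tRNA UMIs (SD, n = 3 each). Gln-CTG took 89.5 ± 1.11% in CYP and 88.9 ± 2.19% in Control of glutamine, and Ile-AAT 91.3 ± 1.10% in CYP and 90.9 ± 1.00% in Control of isoleucine. Pro-AGG and Pro-TGG shared proline almost evenly, Pro-AGG with 45.1 ± 1.19% in CYP and 44.2 ± 1.62% in Control. The largest difference among the 13 was 0.962 percentage points, for Thr-AGT. With 3 against 3 libraries this test cannot pass 0.05, so it could not call a difference of any size. The order of the 19 anticodons by level was nearly the same in both groups, with a Spearman rho of 0.996 between CYP and Control means over 19 anticodons that share libraries.

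Of the 157 rows, 144 had UMIs in all 6 libraries. The leading row held more than 50% of an anticodon's UMIs for Ala-TGC, Gln-CTG, Ala-AGC, Cys-GCA and Thr-CGT, and the smallest leading share was 23.5%, for Thr-AGT. In Thr-TGT the leading row, tRNA-Thr-TGT-3-1, took 41.7, 49.5 and 48.8% in CYP and 30.9, 42.3 and 50.5% in Control, so Control library 1 was again the one out of range. When every row of the tRNA table was tested by itself in edgeR, 0 of 369 were called (80 at an unadjusted p below 0.05). The number of rows of an anticodon and its level went together weakly, with a Spearman rho of 0.515 in CYP and 0.487 in Control over the 19 anticodons, which share libraries.

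Lists defined by tRNA chemistry gave few calls by edgeR. Over all features, edgeR called 1.43% higher and 12.9% lower. At an unadjusted p below 0.05 the shares were 20% and 17.1%, and DESeq2 called 19.7% in each direction. Among the 4 of these anticodons that start with A and carry inosine (Ala-AGC, Ile-AAT, Pro-AGG and Thr-AGT), none was called by edgeR (2 higher at an unadjusted p below 0.05, and 2 higher by DESeq2) and the median log2 fold change was 0.45, beside -0.064 over all features. Of the inosine anticodons of other amino acids, Val-AAC was called lower, with a log2 fold change of -1.52, and Arg-ACG, Leu-AAG and Ser-AGA had 0.41, 0.62 and 0.33 without a call. Of the 4 queuosine tRNAs (Asn-GTT, Asp-GTC, Tyr-GTA and His-GTG), 1 was called higher by edgeR, Asn-GTT, with a median of 0.13. At an unadjusted p below 0.05, 2 of the 4 were higher, and DESeq2 called 2 higher. The DNMT2 targets Asp-GTC, Gly-GCC and Val-AAC had a median of -1.26, and 1 of 3, Val-AAC, was called lower. Without Control library 1 that median was -0.60. The intron-containing Tyr-GTA and Ile-TAT had a median of 0.45 (0.27 without Control library 1) with no call by edgeR (both higher at an unadjusted p below 0.05 and by DESeq2). Set beside these, 2 of 9 Gly, Glu and Val anticodons, 1 of 10 Met, Lys, Arg and His anticodons and 6 of 22 mitochondrial tRNAs were called lower, and 0 of 10 Leu, Ser and SeC anticodons were called by edgeR (2 higher at an unadjusted p below 0.05, and 2 by DESeq2).

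The 3′ sequences printed above add a second view, since their letters show which piece of the tRNA gene was read. Of the 84 sequences, 61 at 18 genes were trailers, 16 to 39 bases long, of which 44 began at the first base past the gene and 43 ended in at least 3 T. A further 6 ended in CCA, all at Tyr or Ile genes, and 17 covered the 3′ end of the tRNA and ran on past it. Of those 17, 13 (at Ala-TGC gene n-TAtgc10 and Cys-GCA gene n-TCgca18) had CCA directly past the gene end, followed by 1 or more T. Trailer UMIs came to 379, 370.2 and 414 miRNA-scaled CPM in CYP and 290.0, 311 and 311 in Control. Every CYP library was above every Control library, with means of 388 ± 22.9 in CYP and 304 ± 12.1 in Control (SD, n = 3 each; exact two-sided permutation p = 0.1, the smallest possible). All 84 sequences at the 24 genes, trailers and other 3′ pieces together, took 7.94 ± 0.495% of the uncharacterized UMIs in CYP and 7.39 ± 0.569% in Control (exact permutation p = 0.3). That share was not computed for the trailers alone. The share of trailer UMIs that ended in at least 3 T was 86.1 ± 1.08% in CYP and 83.3 ± 0.886% in Control (exact permutation p = 0.1).

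No single gene's 3′ sequences passed the test. With sequences summed per gene and tested in edgeR among 797 features of the uncharacterized table, 0 of 24 were called, 2 had an unadjusted p below 0.05, and DESeq2 called 0, where 1.13% of all features were called. The log2 fold change was above 0 for 17 of 24, with a median of 0.25 over the 24 genes and 0.022 over the 797 features. The genes with the smallest p were n-TCgca57 and n-TDgtc3. n-TDgtc3 had 74, 88 and 52 UMIs in CYP and 41, 23 and 29 in Control, a log2 fold change of 0.99 ± 0.32 (edgeR adjusted p = 0.217). The 3′ sequences of n-TCgca57 had 74, 66 and 85 UMIs in CYP and 40, 30 and 47 in Control (0.77 ± 0.24; edgeR adjusted p = 0.207). In both genes the UMIs of the groups did not overlap, but both were picked by these values. The unscaled UMIs of n-TTcgt5, n-TTcgt3, n-TIaat17 and n-TCgca54 did not overlap either, and those of the other genes did. On the miRNA scale some of those others also separated, such as n-TAagc16, with 30.7 to 32.0 miRNA-scaled CPM in CYP and 23.6 to 26.5 in Control. The share over the 797 features was not computed, so these separations cannot be set against those of other features.

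Thr-CGT was scarce in the tRNA table and led the trailers. Its gene n-TTcgt5 had 138, 143 and 138 miRNA-scaled CPM in CYP and 109, 114 and 97.4 in Control, and n-TTcgt3 had 44.0, 36.9 and 46.4 in CYP and 30.2, 30.1 and 29.1 in Control. Neither gene overlapped between the groups on that scale. In edgeR with TMM scaling of the uncharacterized table, the log2 fold changes were 0.14 ± 0.18 and 0.27 ± 0.18 (adjusted p = 0.821 and 0.592). For every 100 Thr-CGT UMIs in the tRNA table there were 516 ± 35.5 UMIs of 3′ sequences in CYP and 585 ± 46.8 in Control (exact permutation p = 0.2). For Asp-GTC, the most abundant anticodon, the same ratio was 0.603 ± 0.0998 in CYP and 0.282 ± 0.120 in Control (exact permutation p = 0.1). For Ala-CGC the ratio was 59.9 ± 7.92 in CYP and 80.5 ± 11.2 in Control (exact permutation p = 0.1). Of 12 such ratios, 9 were lower on average in CYP and 3 higher, Asp-GTC and Ala-CGC alone did not overlap between the groups, and the smallest p adjusted over the 12 was 0.48. Trailer and tRNA levels therefore had different leaders. Ala-TGC gene n-TAtgc10 and Ala-CGC gene n-TAcgc8 followed, with 86.0 ± 15.1 and 78.8 ± 11.5 miRNA-scaled CPM in CYP, against 73.0 ± 17.9 and 71.6 ± 12.9 in Control, and both overlapped between the groups. The sequences at Tyr-GTA gene n-TYgta9, all ending in CCA, had 13.4, 17.6 and 12.1 miRNA-scaled CPM in CYP and 8.16, 13.9 and 10.1 in Control.

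**Figure D4:**
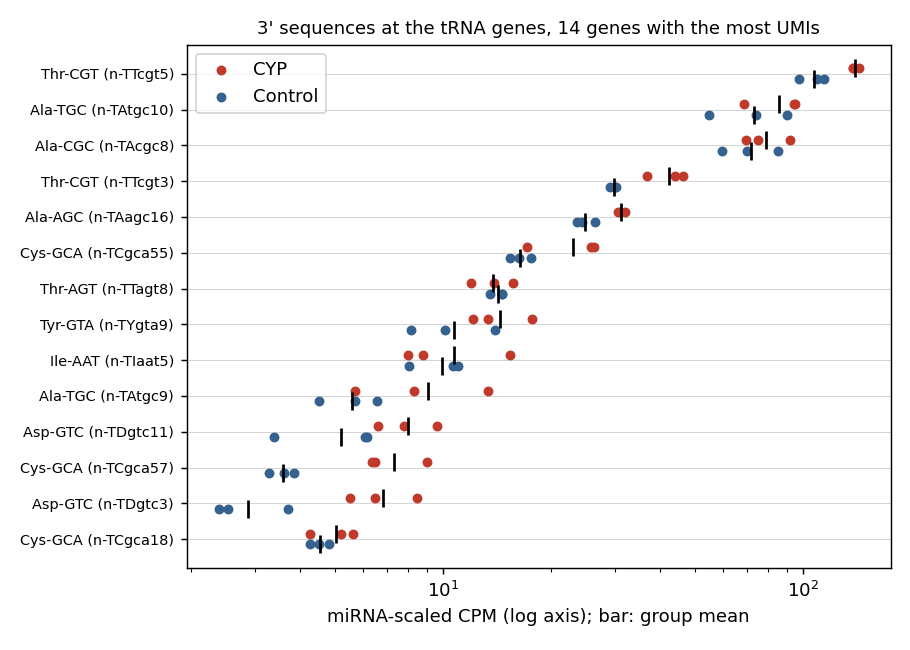
Points are single libraries of the 3′ sequences summed at each of the 14 genes with the most UMIs, in miRNA-scaled CPM on a log axis, CYP above Control on each line and a black bar at the mean. Thr-CGT gene n-TTcgt5 leads in both groups, and its CYP libraries, 138 to 143, lie above its Control libraries, 97.4 to 114.

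Some 3′ sequences carried an A after the T run, which is shown as the only capital here.
Thr-CGT, n-TTcgt5, after 3 T: gccctctttccgtgtggatttaagaatttA
Thr-CGT, n-TTcgt5, after 4 T: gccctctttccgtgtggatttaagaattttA
Thr-CGT, n-TTcgt5, after 5 T: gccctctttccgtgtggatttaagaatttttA
Thr-CGT, n-TTcgt5, after 6 T: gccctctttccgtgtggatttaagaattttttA
Ala-CGC, n-TAcgc8, after 3 T: gcagccggaattctgtttA
Ala-TGC, n-TAtgc10, after 1 T: tccccggcatctccaccatA
Ala-TGC, n-TAtgc10, after 2 T: tccccggcatctccaccattA
At n-TTcgt5 these 4 of 9 sequences held 10.5 ± 1.77% of the gene's UMIs in CYP and 11.2 ± 2.43% in Control (SD, n = 3 each; exact permutation p = 0.8), overlapping between the groups. The A follows T runs of 3 to 6 from this gene, whose sequences without the A end in 2 to 6 T. At n-TAcgc8 the share of the gene's UMIs was 3.01, 4.11 and 2.43% in CYP, against 1.98, 2.05 and 1.64% in Control, from 77 UMIs in all 3 CYP libraries and 43 in all 3 Control libraries. At n-TAtgc10 it was 7.16, 8.30 and 6.55% in CYP, against 9.73, 10.4 and 9.89% in Control. CYP was higher without overlap at n-TAcgc8 and lower without overlap at n-TAtgc10 (exact permutation p = 0.1 each, the smallest possible). The source of the A was not tested.

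A molecule listed as a miRNA, miR-1983, is a 3′ sequence of an Ile-TAT gene. Ile-TAT is the isoleucine tRNA that reads AUA codons. RefSeq's hairpin for miR-1983 holds the whole tRNA gene n-TItat14 at chr13:21896938-21897031, minus strand, printed here with its anticodon in capitals (bases 35 to 37), followed by the mature miR-1983 at chr13:21896930-21896950 with its seed, bases 2 to 8, in capitals.
Ile-TAT, gene n-TItat14: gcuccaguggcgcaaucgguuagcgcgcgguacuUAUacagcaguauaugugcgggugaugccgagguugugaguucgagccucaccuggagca
miR-1983: cUCACCUGgagcauguuuucu
The first 13 bases of miR-1983 are the last 13 of the tRNA gene and the other 8 are trailer. It rose in CYP, with 286, 181 and 212 UMIs in CYP and 108, 96 and 108 in Control. Every CYP library was above every Control library, at 21.7 ± 3.84 miRNA-scaled CPM in CYP and 9.73 ± 0.837 in Control (SD, n = 3 each). The log2 fold change was 1.04 ± 0.16 (edgeR adjusted p = 0.00211 over 885 miRNAs, of which 6.67% were called higher). It was called in all 9 other settings run, with log2 fold changes from 0.89 to 1.18 and adjusted p-values from 0.000166 to 0.0184. In the tRNA table Ile-TAT itself had 316, 300 and 332 UMIs in CYP and 159, 199 and 287 in Control, with a log2 fold change of 0.38 ± 0.17 (edgeR adjusted p = 0.0956). The 2 fold changes come from different tables and scalings, and their difference was not tested. One set of sequences placed at gene n-TIaat17, which RefSeq names as an Ile-AAT gene, shares 36 bases with the Ile-TAT gene, so its anticodon is uncertain. That gene had 59, 44 and 41 UMIs in CYP and 32, 21 and 12 in Control (0.90 ± 0.41; edgeR adjusted p = 0.407).

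The libraries held 14900120 to 19442420 reads and 11211212 to 14585849 UMIs over the deposited tables, and these tRNAs had between 1.03 and 1.04 reads per UMI. Reads set aside as too short were 14.1 ± 1.43% in CYP and 9.96 ± 2.79% in Control, without overlap (exact permutation p = 0.1). Reads in miRNAs, whose UMIs are the denominator of miRNA-scaled CPM, made up 64.2 ± 1.12% in CYP and 67.8 ± 1.30% in Control, also without overlap (exact permutation p = 0.1). Marker miRNAs of the labelled tissue were present: the 2 smooth muscle markers came to 249641 to 261863 CPM in CYP and 258736 to 281029 in Control, and the 6 epithelial markers to 42941 to 46559 CPM in CYP and 38209 to 40536 in Control. The 3 leukocyte markers spanned 2762 to 3646 CPM in CYP and 3154 to 3703 in Control, the 3 erythroid markers 317 to 373 in CYP and 441 to 532 in Control, and the single endothelial marker 20648 to 21210 in CYP and 19774 to 22482 in Control. The 2 neuronal markers spanned 418 to 434 CPM in CYP and 429 to 481 in Control, and the liver marker miR-122 lay between 4.63 and 7.23 in CYP and between 5.01 and 6.91 in Control. No marker was at 0 in all libraries. The epithelial, erythroid, short-read and miRNA-read values separated the groups as the tRNA shares did, and their part in these results was not tested.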

How the data were processed

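Small RNA from 3 CYP and 3 Control libraries was counted by the authors as whole-number read and UMI counts per feature, not normalized, per the file headers; the deposited UMI counts were used here. Per the labels, total RNA was extracted with Trizol and 100 ng entered a Qiagen miRNA library kit. Per the submitters' processing notes, the mm10 build was used with STAR 2.6, Trim Galore, FastQC 0.11.7 and DESeq2; the counting tool and its treatment of reads shared by tRNA copies are not stated. Base modifications that stop reverse transcription can lower a tRNA's counts.

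Gene copies were summed per anticodon. All features of the tRNA table were fitted with edgeR 4.0.16 in R 4.3.3 (robust quasi-likelihood, TMM, edgeR's default filter, counts of 10 and totals of 15), which left out Ser-GGA. P-values were adjusted by Benjamini-Hochberg over the table, with calls below 0.05. The steps were tested on simulated data. For the edgeR fit, the simulated libraries shared a common make-up, apart from the planted changes, and a fixed spread. None had the make-up of Control library 1, so how the fit handles such a library was not tested. Shares were compared by exact two-sided permutation tests. Uncharacterized sequences were matched to RefSeq tRNA genes, allowing a start up to 3 bases past the gene end. Levels are counts of molecules, not divided by length. DESeq2 1.42.0, other scalings, filters and left-out libraries were the alternatives. The tRNA table held 596152 to 853326 UMIs in CYP and 873718 to 2212083 in Control; every row reaches 10 UMIs in a library, so rarer rows were not analysed here. Anticodons at 1000 CPM or more in either group, and every called one, are given in full; within an anticodon the row with the most UMIs is named, and of other tRNAs the 2 most abundant. Row tRNA-Asp-GTC-1-2 and tRNA-Asp-GTC-4-1, the 3′ genes, the sequences shown and miR-1983 were picked after their values were seen. The members and lists were chosen with earlier results of these data known.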

Additional observations from a re-analysis of the deposited data

How the results depend on the processing

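The direction of most anticodons was steadier than their calls. Under the 17 other settings run, 16 of the 19 anticodons kept the sign of their log2 fold change. The exceptions were Asp-GTC at 0.44 and Trp-CCA at 0.69 with plain tRNA totals, and Cys-GCA at -0.040 with cytosolic anticodons alone. The count of anticodons called higher, 1 with TMM, was 0 in edgeR with RLE size factors, plain tRNA totals, cytosolic anticodons alone, the leading row of each anticodon tested among single rows, or no robust estimation (10, 5, 1, 4 and 9 at an unadjusted p below 0.05 in either direction, in that order), 6 with miRNA totals and 9 with DESeq2. Leaving out 1 library gave 0 to 5 called higher (5 without Control library 1, 3 without Control library 3, and 0 otherwise with 4 to 9 at an unadjusted p below 0.05) and 0 to 1 called lower. Of all 71 features, 7 were called higher and 11 lower without Control library 1, and 5 higher and 12 lower without Control library 3. Without any other single library, 0 features were called higher and 1 to 3 lower. The cause of these differences was not tested. Anticodon shares that did not overlap numbered 0 to 1 when 1 library was left out. The share of tRNA UMIs was higher in CYP by 3.93 to 5.79 percentage points when 1 library was left out, the lowest without Control library 1. The miRNA-scaled level was higher by 433 to 1703, the highest without Control library 1, and the lowest without Control library 3.

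Same-numbered libraries had correlations of 0.102, 0.699 and 0.0913 in their deviations from the group means. CYP library 1 correlated best with Control library 3, while 0.699, for the libraries numbered 2, was the highest of all pairs. Deviations from a mean of 3 libraries cannot decide whether the replicate number pairs the libraries, and the labels state no pairing. With the number as a replicate block, 7 of the 19 anticodons were called higher, and of all 70 features 10 were called higher and 15 lower.

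Depth limits the scarce anticodons: Thr-AGT rests on 96 to 264 UMIs per library, and the trailer of n-TDgtc3 on 23 to 88. The positions of fragments within a tRNA are not in the tRNA table, and groups of 3 allow no exact p under 0.1.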
